A study of Mus musculus with 12 samples.

Results

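Splicing factors and spliceosome proteins were followed through the healing of the injured mouse heart. The genes were all rows of the deposited expression table whose symbol begins as that of an SR protein (Srsf, Tra2), an hnRNP, a snRNP or splicing factor subunit (Snrp, Sf3a, Sf3b, U2af, Prpf), a PTB, MBNL or CELF protein, or a numbered RBM protein. The rule found 110 rows of 14460, and no measured value entered it. RNA was sequenced from cardiac macrophages, isolated as GFP-positive cells of Cx3cr1GFP/+ mice 2 to 3 months old, a reporter strain with GFP knocked into 1 allele of the chemokine receptor Cx3cr1. The 4 groups had 3 libraries each: Ly6clow/CX3CR1high cells of uninfarcted hearts without surgery (day 0), Ly6chigh/CX3CR1low cells 3 days after cryoinjury, a freezing injury used as a model of myocardial infarction, and Ly6clow/CX3CR1high cells 7 and 30 days after it. All groups carry the same reporter allele, and none is free of it. The day 3 cells differ from every other group in the sorting gate as well as in time, so gate and time cannot be told apart in any comparison with day 3.

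Splicing removes introns from pre-mRNA. The U1 snRNP recognises the 5′ splice site, U2AF and the U2 snRNP the 3′ splice site and branch point, and the U4/U6.U5 tri-snRNP then joins and is activated; a ring of Sm proteins forms the core of the spliceosomal snRNPs other than U6. SR proteins mostly favour the use of a nearby exon, hnRNP and PTB proteins often oppose it, and MBNL, CELF and many RBM proteins act on chosen exons. Many SR and hnRNP genes also limit their own mRNA through splicing of a poison exon or a retained intron.

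Promoters are shown for genes on which the results below turn, picked after their values were seen: Tra2a, Srsf3 and Hnrnpa3, whose mRNAs were lower at day 7 than at day 3, and Snrpd2, which was higher. Each is the 250 bases before the start in RefSeq (GRCm38.p6), 5′ to 3′ on the gene's strand, with the matched motifs in capitals: the GC box GGGCGG, the CCAAT box, the CRE TGACGTCA, the E box CACGTG and the TATA box TATAAA, on both strands. Tra2a lies at chr6:49264053-49264302 on the minus strand, Srsf3 at chr17:29032410-29032659, Hnrnpa3 at chr2:75659009-75659258 and Snrpd2 at chr7:19149588-19149837, these on the plus strand. The Srsf3 and Snrpd2 windows reach into the gene as placed further below, where another annotation puts its start further upstream.
Tra2a: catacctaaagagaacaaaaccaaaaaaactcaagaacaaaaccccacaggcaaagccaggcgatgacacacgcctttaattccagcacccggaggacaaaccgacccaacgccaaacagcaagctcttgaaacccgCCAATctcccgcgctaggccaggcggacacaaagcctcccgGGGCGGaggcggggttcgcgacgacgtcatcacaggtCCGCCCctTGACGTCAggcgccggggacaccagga
Srsf3: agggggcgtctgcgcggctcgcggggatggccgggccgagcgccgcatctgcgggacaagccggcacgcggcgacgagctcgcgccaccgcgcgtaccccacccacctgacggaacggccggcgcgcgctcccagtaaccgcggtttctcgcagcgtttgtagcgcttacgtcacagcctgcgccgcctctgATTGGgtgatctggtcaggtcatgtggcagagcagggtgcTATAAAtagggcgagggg
Hnrnpa3: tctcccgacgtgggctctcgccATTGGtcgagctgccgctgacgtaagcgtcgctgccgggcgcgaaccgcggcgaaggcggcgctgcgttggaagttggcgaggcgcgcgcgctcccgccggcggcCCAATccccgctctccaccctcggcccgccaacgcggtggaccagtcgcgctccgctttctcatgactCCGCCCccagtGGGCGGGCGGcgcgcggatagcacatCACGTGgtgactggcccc
Snrpd2: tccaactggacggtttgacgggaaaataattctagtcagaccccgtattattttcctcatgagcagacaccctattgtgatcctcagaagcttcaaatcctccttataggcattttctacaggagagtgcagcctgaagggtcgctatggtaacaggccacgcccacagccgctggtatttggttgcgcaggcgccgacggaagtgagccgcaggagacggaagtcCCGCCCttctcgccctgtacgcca

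Of the 110 genes, 91 tested ones matched a RefSeq promoter. A GC box stood in 56% of them and in 58.5% of 9046 promoters of all tested genes, a CCAAT box in 47.3% against 36.5%, the ETS core CCGGAAG in 22% against 14.3%, a TATA box in 12.1% against 6.5%, an E box in 9.89% against 8.53% and a CRE in 3.3% against 2.83%. The median GC content was 58.8% in splicing gene promoters and 59.6% in all. The ETS core had no match in the 4 promoters shown. A match describes letters in this window and not binding.

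Expression is given as signal, the deposited linear normalised read count. It is not divided by gene length, so levels are compared between groups and not between genes. Depth ran from 5828904 to 13199576 reads per library, and the splicing genes took between 0.508% (day 7 replicate 2) and 1.39% (day 30 replicate 3) of them. Their reads per gene and library had a median of 341 and ran from 2 to 12137; 6 genes had under 20 reads in some library. The 9 macrophage and monocyte markers were all present in every library, with a summed signal of 8430 to 19900. Day 7 replicate 2 stood apart: 57 of the 108 tested splicing genes had their lowest signal of the 12 libraries there, and 18 their highest. The day 30 libraries were closely alike, with a median coefficient of variation over splicing genes of 5.2%, against 14.7%, 10.8% and 24.4% at days 0, 3 and 7. They are labelled as independent biological replicates, but the files do not settle whether they are separate animals or draws on a single RNA pool. If a pool, the day 30 SE and p that take n = 3 are too small. The spread is estimated over the 4 groups together, so SE and p of comparisons without day 30 would then be too small as well. The counts of the 108 tested splicing genes at day 30, and the named day 30 calls that are lost, are therefore also given with the 3 averaged into 1 sample. Named calls of the other comparisons are not given in that form. In bulk RNA, fewer cells of a type and less RNA per cell cannot be told apart.

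**Figure D1:**
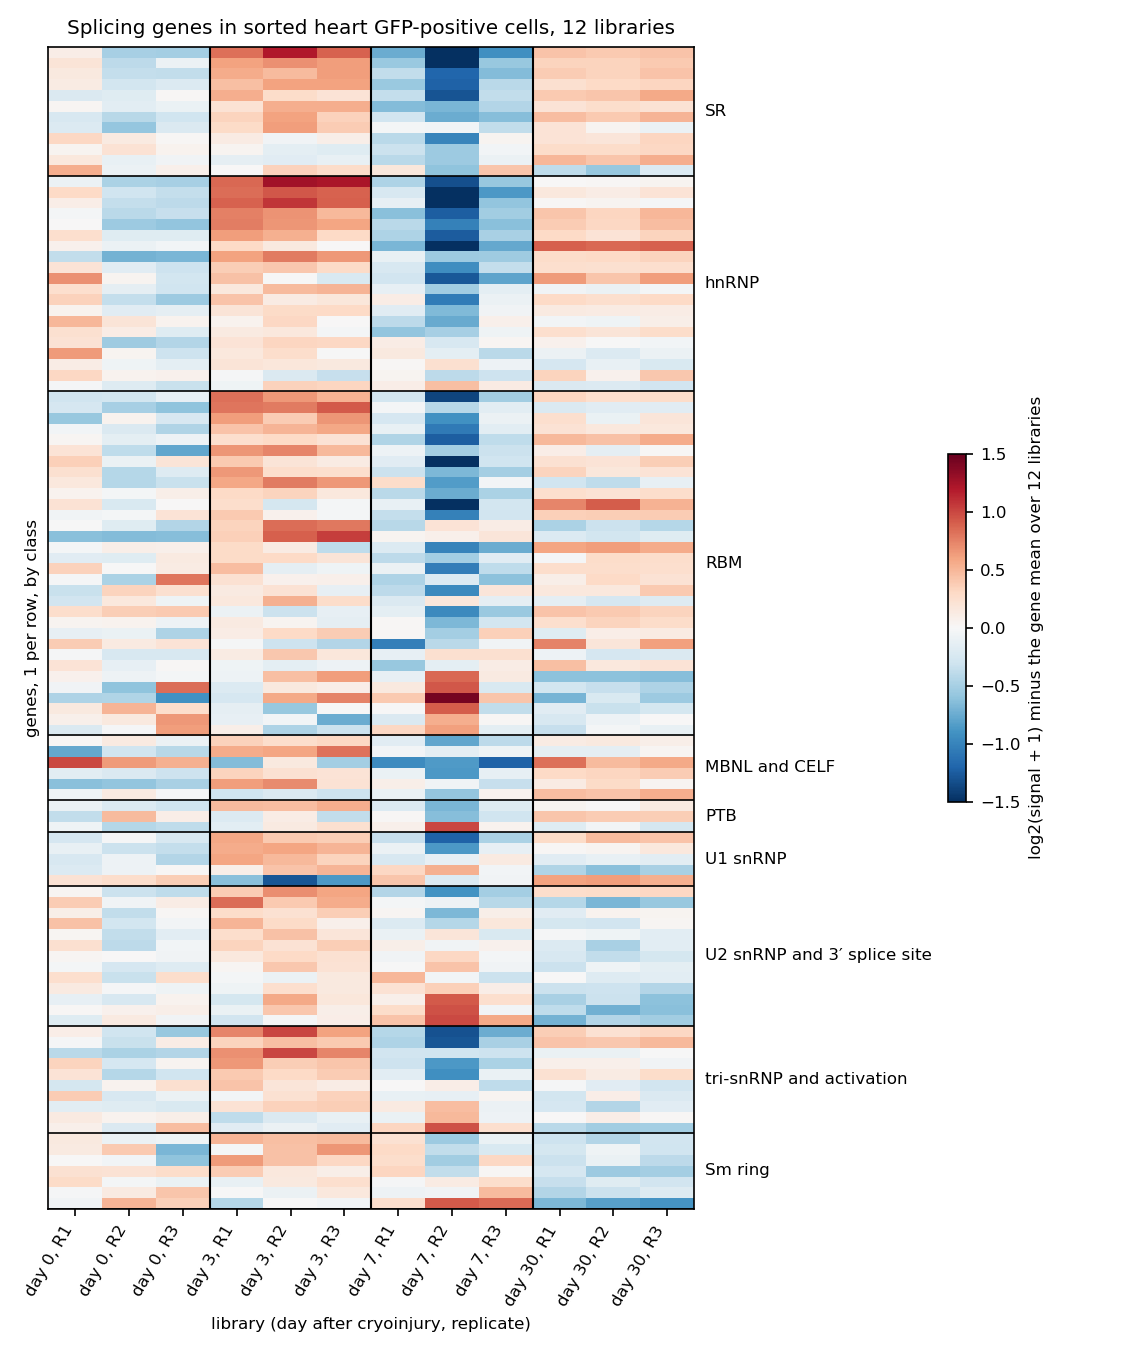
Signal of the 108 tested splicing genes in the 12 libraries, with genes in rows by class and libraries in columns by day. Colour is the log2(signal + 1) of a gene minus its mean over the libraries; day 7 replicate 2 holds the lowest value of 57 genes.

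Splicing genes were mostly highest at day 3 and lowest at day 7. The highest group mean was at day 3 in 60 of 108 genes (55.6%), and at days 0, 7 and 30 in 8, 14 and 26. The lowest was at day 7 in 57 (52.8%), and at days 0, 3 and 30 in 13, 5 and 33. Among all 12879 tested genes, 31.3% were highest at day 3 and 26.8% lowest at day 7. The group means of a splicing gene spanned 0.21 to 2.02 on the log2 scale, with a median of 0.82. A change over the 4 groups passed limma's test at an adjusted p of 0.05 in 78 of 108 splicing genes (72.2%), against 63.9% of all tested genes. The genes Rbm44 and 1 of the 2 identifiers of Rbm15b were below the filter of a mean signal of 1.

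The direction of the calls set the comparisons apart. At day 3 against day 0, 40 genes rose and 3 fell (37% and 2.78%), with 22.1% of all tested genes called higher and 22.1% lower. At day 7 against day 3, 4 rose and 54 fell (3.7% and 50%; 23.3% and 23.5% of all genes). At day 30 against day 7, 49 rose and 11 fell (45.4% and 10.2%; 19.7% and 19.9% of all genes). At day 7 against day 0, 4 rose and 22 fell (3.7% and 20.4%; 11.4% and 10.2% of all genes), and at day 30 against day 0, 5 rose and 3 fell (4.63% and 2.78%; 3.45% and 2.73% of all genes). The median log2 fold changes of splicing genes were 0.38, -0.55, 0.42, -0.21 and 0.18 in this order, against -0.02, 0.04, 0.01, -0.02 and -0.01 over all tested genes. These comparisons share their day 0, day 3, day 7 or day 30 libraries and are not independent.

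**Figure D2:**
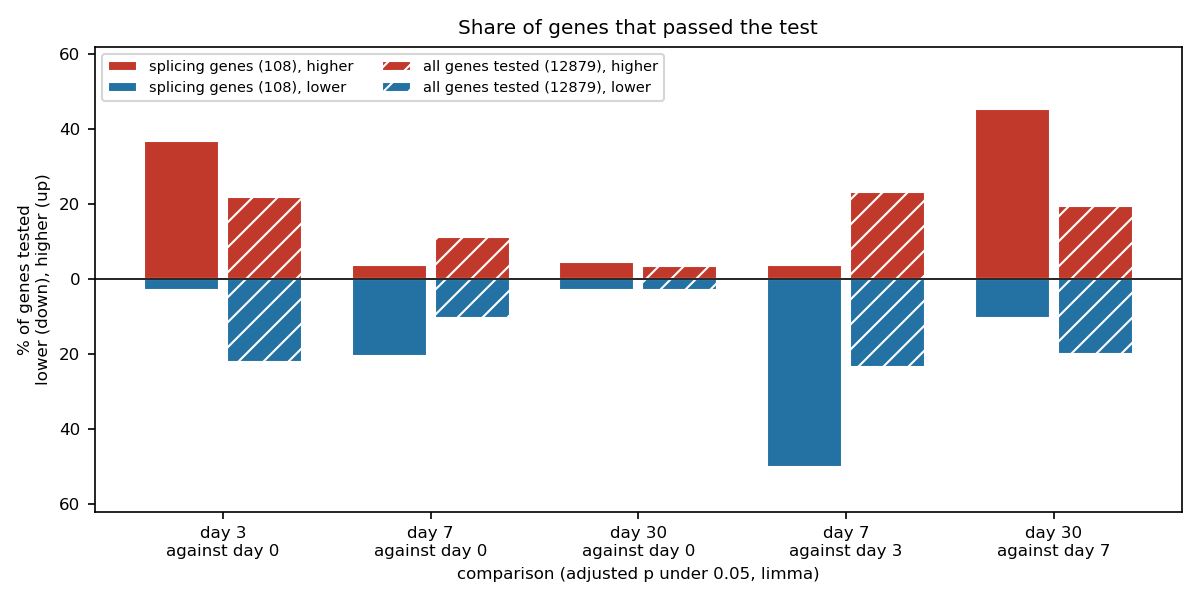
Share in percent of the splicing genes and of all tested genes called higher or lower in each of the 5 comparisons. At day 7 against day 3, 50% of splicing genes and 23.5% of all genes were lower.

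The falls at day 7 against day 3 numbered 48 to 57 when any 1 library was left out. The rises at day 3 against day 0 numbered 21 after quantile normalisation, which also gave 9 falls. The falls at day 7 against day 0 numbered 6 without day 0 replicate 1, 7 without day 7 replicate 2, and 5 without both. Fits of the compared groups alone, which hold no day 30 library here, gave 3 falls at day 7 against day 0. They gave 46 rises at day 3 against day 0 and 43 falls at day 7 against day 3. With the day 30 libraries as 1 sample, all calls at day 30 against day 0 and most at day 30 against day 7 were lost. That test has a lone day 30 sample, assumed to vary like the other groups. At day 30 against day 0, edgeR gave 5 rises and 3 falls as limma did. It takes the same 3 day 30 libraries as replicates, so it cannot tell whether they are a pool. Without day 7 replicate 2, 25 rose and 9 fell at day 30 against day 0. The shares of all genes in the alternative fits, here and by class below, are not given. These counts therefore do not show whether a shift is particular to splicing genes.

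Marker sums of other cells moved between the same groups. The 10 fibroblast markers summed to 40.8 to 121, 304 to 415, 588 to 2320 and 175 to 179 at days 0, 3, 7 and 30. The 2320 was in day 7 replicate 2, the library that also held the lowest signal of 57 splicing genes. Lox was at 0 in the 3 day 0 libraries and Tcf21 in 1 of them. The fibroblast markers did not move alike between days 0 and 3. The means of Col1a1, Col1a2, Col3a1, Postn, Col5a1 and Lox were higher at day 3. Those of Dcn (48.8 at day 0, 21.2 at day 3) and Lum (7.61 and 5.37) were lower. Pdgfra (3.47 and 3.53) and Tcf21 (0.236 and 0.324) were low on both days. The 12 cardiomyocyte markers summed to 86.3 to 412, 11.5 to 17.8, 86.9 to 221 and 26.6 to 27 at days 0, 3, 7 and 30, with Myl3 at 0 in the 3 day 3 libraries. The 6 neutrophil markers in the table, of 10 listed, summed to 53.2 to 102, 245 to 309, 101 to 160 and 60.9 to 65 at days 0, 3, 7 and 30. Csf3r made up most of this sum at days 0 and 3, with means of 50.4 and 166. The means of S100a8, S100a9, Cxcr2 and Mmp8 were also higher at day 3 than at day 0, and that of Retnlg was not (0.621 and 0.729). The gate genes Ly6c2 and Ccr2 summed to 2020 to 2660 at day 3 and 194 to 349 at day 0. The part of other cells in the splicing gene values was not tested.

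SR proteins carry serine-arginine repeats and bind exonic enhancers. Of 12 tested, 7 rose and 0 fell at day 3 against day 0, 0 rose and 8 fell at day 7 against day 3, and 10 rose and 0 fell at day 30 against day 7 (medians 0.59, -1 and 0.92). The rise, fall and rise took 58.3%, 66.7% and 83.3% of them, against 22.1%, 23.5% and 19.7% of all genes. The mean log2(signal + 1) over the 12 genes lay at 6.35 to 6.66, 6.90 to 6.99, 5.66 to 6.24 and 6.81 to 6.89 in the libraries of days 0, 3, 7 and 30. The day 7 range lies below those of the 3 other days. After trends on GC content and transcript length were removed, 0 rose and 8 fell at day 7 against day 3, and 9 rose and 0 fell at day 30 against day 7. With day 30 as 1 sample, 4 rose and 0 fell at day 30 against day 7. After quantile normalisation 2 rose and 2 fell at day 3 against day 0.

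Tra2a, which encodes an SR-like activator of exons (chromosome 6, 49243924 to 49264033, GRCm38), had signals of 58.9, 38.5 and 38.2 at day 0, 98.0, 128 and 102 at day 3, 32.4, 17.6 and 28.6 at day 7, and 74.2, 72.5 and 74.5 at day 30. The day 7 libraries were below all others, and those of day 3 above all others. The log2 fold change was 1.28 ± 0.22 at day 3 against day 0 (SE, n = 3 each; limma, adjusted p = 0.000191), -2.05 ± 0.22 at day 7 against day 3 (adjusted p = 2.97e-06) and 1.5 ± 0.22 at day 30 against day 7 (adjusted p = 0.000157). Its paralog Tra2b had 134, 89.7 and 111 at day 0, 180, 190 and 182 at day 3, 79.6, 38.8 and 79.2 at day 7, and 148, 149 and 155 at day 30. It changed by -1.54 ± 0.22 at day 7 against day 3 and by 1.25 ± 0.22 at day 30 against day 7.

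Srsf3, the smallest SR protein (chromosome 17, 29032628 to 29043373), had signals of 337, 257 and 269 at day 0, 425, 471 and 472 at day 3, 211, 133 and 235 at day 7, and 368, 380 and 386 at day 30. The 4 groups did not overlap. It changed by -1.28 at day 7 against day 3 (adjusted p = 6.26e-05) and by 1.01 at day 30 against day 7 (adjusted p = 0.000872; 0.0581 with day 30 as 1 sample). The rise at day 3 against day 0, 0.67, was 0.30 after quantile normalisation (adjusted p = 0.179), and the fall at day 7 against day 0, -0.60, was -0.24 without day 0 replicate 1 and day 7 replicate 2 (adjusted p = 0.165). Srsf5 had 327, 288 and 314 at day 0, 489, 586 and 490 at day 3, 317, 230 and 247 at day 7, and 533, 506 and 549 at day 30. It was the 1 SR gene higher at day 30 than at day 0, by 0.77 ± 0.15 (adjusted p = 0.00723; 0.438 with day 30 as 1 sample).

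Srsf2, which encodes SC35, changed by -1.29 at day 7 against day 3, Srsf11 by -1.02 and Srsf7 by -1.02. Srsf1, the founding SR protein, did not pass at day 3 against day 0 (-0.10, adjusted p = 0.698), with signals of 94.0, 83.0 and 92.0 at day 3 and 107, 95.1 and 87.7 at day 0. It rose by 0.69 at day 30 against day 7, a call lost with day 30 as 1 sample (adjusted p = 0.191) and after GC and length trends were removed (0.10, adjusted p = 0.618). Srsf9 passed in none of the 5 comparisons, with log2 fold changes between -0.57 and 0.03. Srsf9 and Srsf11 are named after their values were seen.

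**Figure D3:**
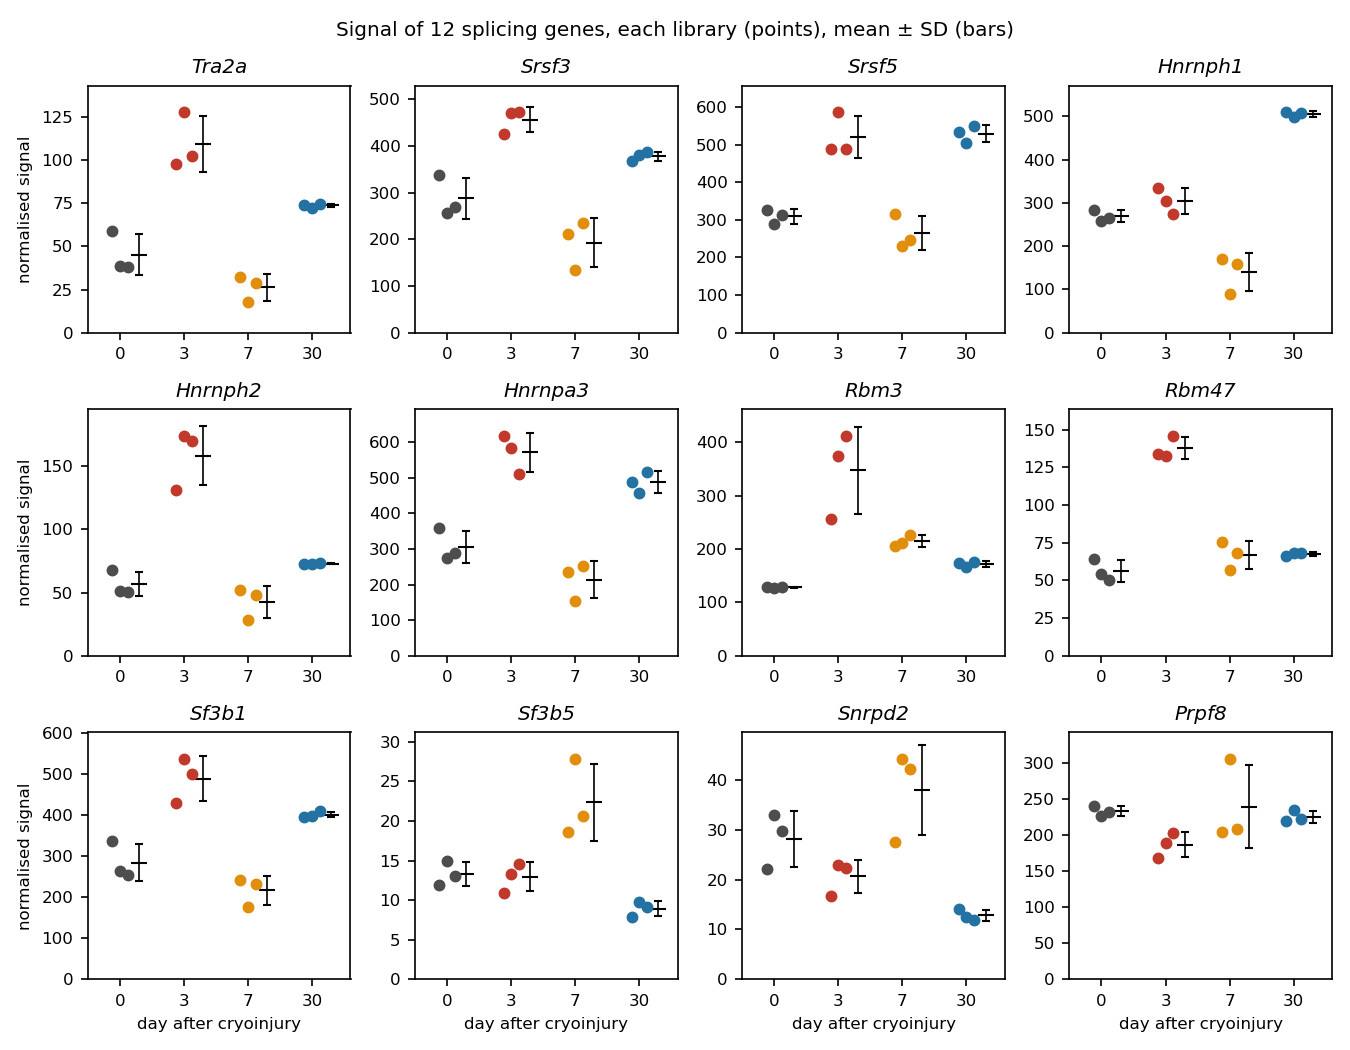
Signal (linear normalised read count) of 12 splicing genes at days 0 (no surgery), 3, 7 and 30 after cryoinjury, with days evenly spaced, points for libraries and bars for mean ± SD (n = 3). Tra2a is between 17.6 and 32.4 at day 7, and Snrpd2 between 11.9 and 14.0 at day 30.

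The hnRNP proteins package nascent RNA and often silence exons. Of 20 tested, 9 rose and 0 fell at day 3 against day 0, 0 rose and 14 fell at day 7 against day 3, and 13 rose and 1 fell at day 30 against day 7 (medians 0.43, -0.75 and 0.66). The gene that fell at day 30 against day 7 was Hnrnpul1 (-0.46), named after its value was seen. The rise, fall and rise took 45%, 70% and 65% of the 20 genes, against 22.1%, 23.5% and 19.7% of all genes. After removal of GC and length trends 0 rose and 14 fell at day 7 against day 3, and 7 rose and 0 fell at day 30 against day 7. With day 30 as 1 sample, the last comparison gave 3 and 0. After quantile normalisation 5 rose and 2 fell at day 3 against day 0.

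The H group of hnRNPs, which bind G-rich RNA, peaked on different days. Hnrnph1 (chromosome 11, 50376990 to 50386528) had signals of 284, 258 and 265 at day 0, 335, 303 and 274 at day 3, 170, 89.6 and 159 at day 7, and 509, 498 and 508 at day 30. It was highest in the day 30 libraries and lowest in those of day 7. It did not pass at day 3 against day 0 (0.17, adjusted p = 0.495), fell by 1.17 at day 7 against day 3 (adjusted p = 0.000203) and rose by 1.90 ± 0.19 at day 30 against day 7 (adjusted p = 1.86e-05). At day 30 it was above day 0 by 0.91 (adjusted p = 0.0124; 0.471 with day 30 as 1 sample). Hnrnph2 (chromosome X, 134601179 to 134607060) had 67.5, 51.5 and 50.7 at day 0, 131, 174 and 169 at day 3, 51.6, 28.2 and 48.1 at day 7, and 72.2, 72.7 and 73.7 at day 30. It was highest in the day 3 libraries, 1.47 ± 0.20 above day 0 (adjusted p = 3.01e-05), and changed by -1.90 ± 0.20 at day 7 against day 3 (adjusted p = 3.63e-06). The difference between the time courses of these genes was not tested.

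Hnrnpa3 (chromosome 2, 75659261 to 75669407) had signals of 358, 275 and 288 at day 0, 619, 585 and 512 at day 3, 235, 154 and 253 at day 7, and 489, 457 and 518 at day 30. The day 7 libraries lay below all others. It changed by 0.90 at day 3 against day 0, -1.44 at day 7 against day 3 and 1.21 at day 30 against day 7. Hnrnpm, which binds GU-rich RNA, had 102, 67.6 and 64.7 at day 0, 149, 159 and 155 at day 3, 70.3, 25.4 and 45.4 at day 7, and 93.0, 89.8 and 96.0 at day 30, and changed by -1.81 ± 0.27 at day 7 against day 3 (adjusted p = 6.78e-05).

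Hnrnpll, a regulator of Ptprc exon choice in lymphocytes, had 45.8, 35.8 and 36.4 at day 0, 90.9, 103 and 94.0 at day 3, 54.8, 40.5 and 40.8 at day 7, and 72.1, 73.1 and 75.1 at day 30. It was higher than at day 0 both at day 3, by 1.27, and at day 30, by 0.89 (adjusted p = 0.00367; 0.332 with day 30 as 1 sample). The 9 T and NK cell markers in the table, of 10 listed, summed to 27.2 to 190, 2.95 to 9.39, 15.1 to 47.8 and 13.9 to 18.2 at days 0, 3, 7 and 30. Their part in the Hnrnpll values was not tested. The 4 hnRNP genes above day 0 at day 30 were Hnrnph1, Hnrnpll, Hnrnpdl (0.76) and Hnrnpa3 (0.68), with adjusted p of 0.471, 0.332, 0.587 and 0.710 when day 30 was 1 sample. Hnrnpa1 passed in none of the 5 comparisons; gene copies close to it could take part of its reads, which makes its values uncertain.

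The lowest mean was at day 30 in 7 of 7 Sm ring genes and in 10 of 13 U2 snRNP and 3′ splice site genes, against 23% of all tested genes. It was there in 1 of 5 U1 and 4 of 10 tri-snRNP genes. The mean log2(signal + 1) of the Sm genes was 4.27 to 4.48, 4.46 to 4.60, 4.21 to 4.55 and 3.92 to 3.97 at days 0, 3, 7 and 30. That of the U2 genes was 4.74 to 5.03, 5.09 to 5.24, 4.90 to 5.08 and 4.65 to 4.68. In both classes the day 30 libraries lay below all others on this mean, which weighs each gene alike. Median GC content was 46.4% for Sm, 50% for U2 and 44.9% for all splicing genes. Median transcript length was 1055, 2213 and 3522 bases, in this order. Across splicing genes, the change at day 30 against day 7 had r = -0.617 with GC content and 0.397 with log2 length. Sm and U2 class values with these trends removed are not given. The part of these trends in the low day 30 means was not tested. The summed signal of the U2 genes was 675.3 to 693 at day 30, 575.9 to 601.3 at day 7 and 560.8 to 701.9 at day 0. That of the Sm genes was 121.5 to 126 at day 30, 164 to 201.1 at day 7 and 180.8 to 186 at day 0. At day 30 against day 7 the median log2 fold changes were -0.39 for Sm and -0.32 for U2 genes. Of all genes, 19.7% rose and 19.9% fell. In the classes, 0 Sm genes rose and 1 fell (0% and 14.3%), and 1 U2 gene rose and 4 fell (7.69% and 30.8%). With day 30 as 1 sample these were 0 and 1 in both classes.

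Snrpd2, which encodes SmD2 (chromosome 7, 19149722 to 19153542), had signals of 22.04, 32.9 and 29.7 at day 0, 16.8, 22.9 and 22.2 at day 3, 27.6, 44.3 and 42.2 at day 7, and 14.0, 12.6 and 11.9 at day 30. The day 30 libraries were the lowest 3. It changed by 0.83 at day 7 against day 3, -1.47 at day 30 against day 7 (adjusted p = 0.000155) and -1.06 at day 30 against day 0 (adjusted p = 0.00846; 0.419 with day 30 as 1 sample). Snrpg, which encodes SmG, was the other Sm gene lower at day 30 than at day 0, by -0.68 (adjusted p = 0.031; 0.672 with day 30 as 1 sample). Snrpb, which encodes SmB, passed in none of the 5 comparisons.

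Of the U2 genes, Sf3b1, which encodes the branch point clamp of the SF3b complex (chromosome 1, 54985169 to 55027481), had signals of 336, 263 and 253 at day 0, 428, 536 and 498 at day 3, 242, 176 and 232 at day 7, and 395, 398 and 408 at day 30. The groups did not overlap. It changed by 0.78 at day 3 against day 0, -1.17 at day 7 against day 3 and 0.90 at day 30 against day 7, the last with an adjusted p of 0.0577 with day 30 as 1 sample and 0.0738 after GC and length trends were removed. Sf3b5, a small subunit of the same complex (chromosome 10, 13005343 to 13009183), had 11.9, 14.99 and 13.04 at day 0, 10.9, 13.3 and 14.6 at day 3, 18.6, 27.9 and 20.6 at day 7, and 7.88, 9.75 and 9.13 at day 30. It was highest in the day 7 libraries and lowest in those of day 30, with a change of 0.73 at day 7 against day 3 and -1.22 at day 30 against day 7 (adjusted p = 0.000345). Sf3a2 (-0.97), Sf3b2 (-0.58) and Sf3b4 (-0.89) fell at day 30 against day 7 as well, calls lost with day 30 as 1 sample. Sf3b4 was then at an adjusted p of 0.153, and at -0.37 (adjusted p = 0.124) after GC and length trends were removed; Sf3a2 and Sf3b2 are named after their values were seen. U2af1, the small U2AF subunit that reads the AG of the 3′ splice site, had 16.1, 13.3 and 14.6 at day 30 and 28.9, 21.2 and 23.9 at day 0, a change of -0.70 (adjusted p = 0.0329; 0.686 with day 30 as 1 sample). The U2af1 call was also lost after GC and length trends were removed (-0.43, limma adjusted p = 0.164). It was lost when any 1 of the day 0 or day 30 libraries was left out (limma, adjusted p of 0.0571 to 0.149). Gene copies close to U2af1 could take part of its reads. U2af2, the large subunit, rose at day 3 against day 0 by 0.46 (0.30 after quantile normalisation, adjusted p = 0.167) and passed in no other comparison.

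Among U1 genes, Snrpc, which encodes U1-C, rose by 0.72 at day 3 against day 0 with signals of 26.5, 24.7 and 22.1 at day 3 and 14.5, 16.4 and 12.5 at day 0. Prpf39, named for a yeast U1 protein, rose by 0.62 (0.34 after quantile normalisation, adjusted p = 0.21). Snrpa, which encodes U1-A, had 19.3, 16.96 and 18.7 at day 30 and 33.3, 39.1 and 26 at day 7, a change of -0.79 (adjusted p = 0.00305; 0.107 with day 30 as 1 sample). Prpf40b fell by 1.21 at day 3 against day 0, but it had 0.958, 0.236 and 0.662 signal at day 3, as few as 2 reads, and 2.51, 2.62 and 2.90 at day 0. Of the 5 U1 genes, 3 rose and 1 fell in that comparison, and 1 rose and 3 fell at day 7 against day 3. These are 60% and 20%, against 22.1% and 22.1% of all genes, and 20% and 60%, against 23.3% and 23.5%. Snrpc and Prpf40b are named after their values were seen.

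Of the 10 tri-snRNP and activation genes, 3 rose and 0 fell at day 3 against day 0, 1 rose and 5 fell at day 7 against day 3, and 4 rose and 2 fell at day 30 against day 7 (1 and 0 with day 30 as 1 sample). The shares that rose were 30%, 10% and 40%, against 22.1%, 23.3% and 19.7% of all genes. Those that fell were 0%, 50% and 20%, against 22.1%, 23.5% and 19.9%, so the last was near that of all genes. Prpf38a, part of the B complex (chromosome 4, 108563172 to 108579336), had 14.3, 13.5 and 13.9 at day 0, 31.3, 39.4 and 32.4 at day 3, 15.6, 15.4 and 15.3 at day 7, and 17.9, 17.8 and 19.1 at day 30. The day 3 libraries lay above all others, by 1.24 ± 0.15 against day 0 (adjusted p = 9.06e-06). Prpf38b changed by 1.03 at day 3 against day 0 and -1.60 at day 7 against day 3. Prpf19, the ubiquitin ligase of the activated spliceosome, was lower at day 30, with 14.8, 13.6 and 13.7, than at day 7, with 25.1, 39.7 and 23.96, a change of -0.99 (adjusted p = 0.00216; 0.0874 with day 30 as 1 sample). Prpf8, the U5 scaffold at the centre of the spliceosome, passed in none of the 5 comparisons or in the 4-group test. Its signals were 226 to 241, 168 to 202, 204 to 306 and 219 to 234 at days 0, 3, 7 and 30, and its highest library was day 7 replicate 2.

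**Figure D4:**
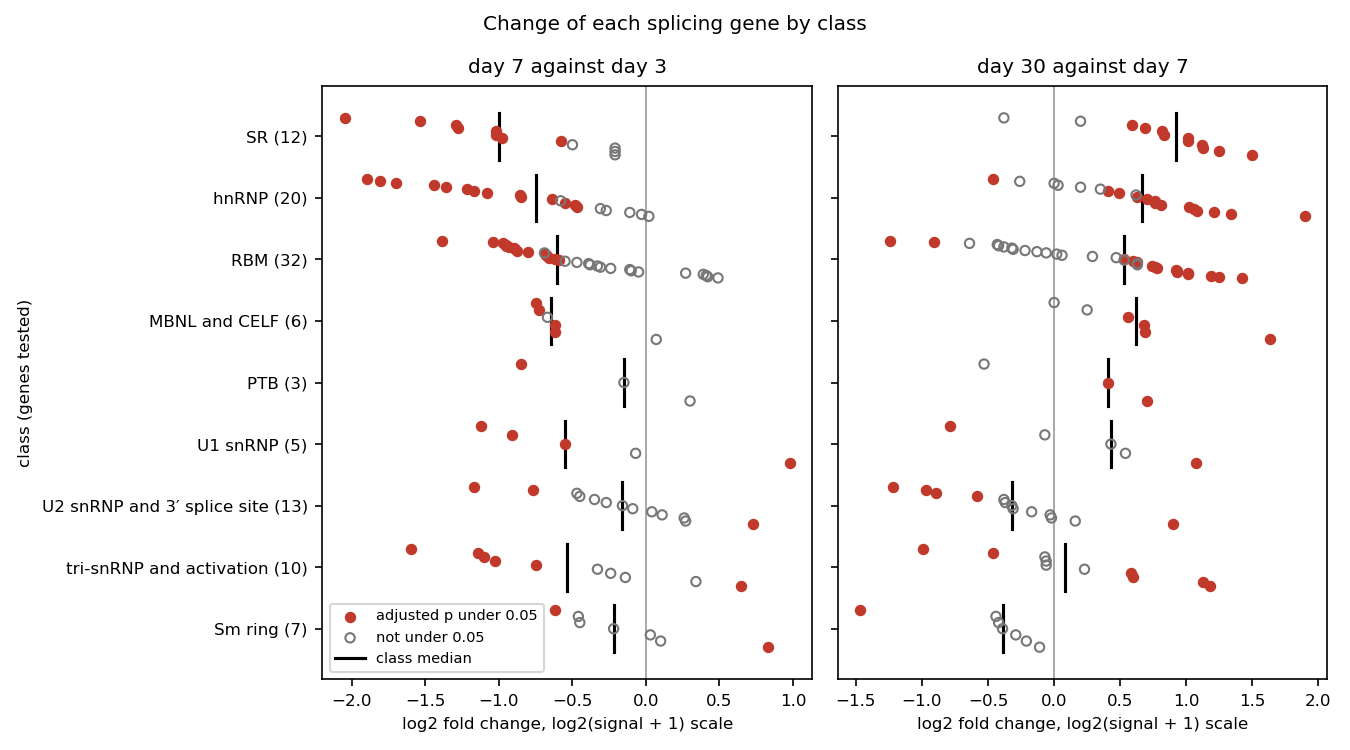
Log2 fold change of each tested splicing gene by class at day 7 against day 3 (left) and day 30 against day 7 (right). Filled points passed an adjusted p of 0.05, open ones did not, and black bars are class medians. SR and hnRNP genes have medians of -1 and -0.75 at day 7 against day 3, and Sm genes have -0.39 at day 30 against day 7.

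Of the 3 PTB genes, Ptbp3 had 491, 454 and 424 at day 0, 727, 724 and 765 at day 3, 455, 326 and 463 at day 7, and 538, 525 and 573 at day 30. It rose by 0.70 at day 3 against day 0 (0.25 after quantile normalisation, adjusted p = 0.191) and fell by 0.85 at day 7 against day 3. Ptbp1, a repressor of many neural and muscle exons, had 152, 290 and 149 at day 7 and 138, 107 and 110 at day 0, a change of 0.67 (adjusted p = 0.0397). Its value rests on day 7 replicate 2, without which it was 0.35 (adjusted p = 0.114).

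The MBNL and CELF proteins have opposing effects on many muscle exons. Mbnl2 (chromosome 14, 120275669 to 120431697) had 86.3, 120 and 111 at day 0, 218, 224 and 260 at day 3, 144, 134 and 142 at day 7, and 135, 135 and 152 at day 30. It rose by 1.15 ± 0.14 at day 3 against day 0 (adjusted p = 1.21e-05). Mbnl1 did not pass at day 3 against day 0 (-0.29, adjusted p = 0.156). It had 726, 708 and 769 at day 30 and 495, 352 and 549 at day 7, a change of 0.68, which was 0.04 after GC and length trends were removed (adjusted p = 0.782) and had an adjusted p of 0.13 with day 30 as 1 sample. Celf2 changed by -0.62 at day 7 against day 3 and -0.23 after quantile normalisation (adjusted p = 0.314). Celf4, named after its values were seen, was low, with 6.34, 4.72 and 4.35 at day 0, 1.34, 3.07 and 1.59 at day 3, 0.908, 1.04 and 0.584 at day 7, and 5.54, 4.10 and 4.44 at day 30. It had as few as 4 reads in a library. Among the 6 MBNL and CELF genes, 50% were higher and 16.7% lower at day 3 against day 0 (22.1% and 22.1% of all genes). At day 7 against day 3 these were 0% and 66.7% (23.3% and 23.5% of all genes). At day 30 against day 7 they were 66.7% and 0% (19.7% and 19.9% of all genes). Of the 6 genes, 3 rose and 1 fell at day 3 against day 0, 0 rose and 4 fell at day 7 against day 3, and 4 rose and 0 fell at day 30 against day 7 (1 and 0 with day 30 as 1 sample).

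The RBM genes share RNA recognition motifs and are otherwise a mixed group. Of 32 tested, 10 rose and 1 fell at day 3 against day 0, 0 rose and 16 fell at day 7 against day 3, and 14 rose and 2 fell at day 30 against day 7 (2 and 0 with day 30 as 1 sample). The shares that rose and fell were 31.2% and 3.12%, 0% and 50%, and 43.8% and 6.25%, in this order. Among all genes they were 22.1% and 22.1%, 23.3% and 23.5%, and 19.7% and 19.9%. Rbm3, a cold-induced RNA-binding protein (chromosome X, 8138975 to 8145880), had 129, 128 and 128 at day 0, 256, 374 and 412 at day 3, 206, 211 and 227 at day 7, and 174, 166 and 176 at day 30. All injured-heart libraries were above those of day 0. It rose by 1.40 at day 3 (adjusted p = 3.65e-06) and 0.74 at day 7 (adjusted p = 0.00426), both against day 0. Rbm47 had 64.4, 54.1 and 50.0 at day 0, 134, 133 and 146 at day 3, 75.2, 57.0 and 68.5 at day 7, and 65.9, 68.0 and 68.3 at day 30, and rose at day 3 against day 0 by 1.28.

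Rbm39, a U2AF-like coactivator, had 254, 225 and 236 at day 0, 298, 307 and 291 at day 3, 182, 105 and 191 at day 7, and 350, 338 and 368 at day 30. It fell by 0.95 at day 7 against day 3 and rose by 1.19 at day 30 against day 7 (adjusted p = 0.00028). Rbm5, which acts on apoptosis gene exons in human cells and is named after its value was seen, and Rbm6 fell by 0.80 and 0.90 at day 7 against day 3. The 1 RBM gene lower at day 3 than at day 0 was Rbm12b2 (-0.52, adjusted p = 0.0345). Reads of Rbm12b1 and Rbm12b2, and of Rbm4 and Rbm4b, could be split between near-identical copies, so their values are uncertain.

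Other splicing genes, 120 tested outside the symbol rule, gave 38 higher and 9 lower at day 3 against day 0 (31.7% and 7.5%; 22.1% and 22.1% of all genes). They gave 9 higher and 52 lower at day 7 against day 3 (7.5% and 43.3%; 23.3% and 23.5% of all genes). At day 30 against day 7, 34 were higher and 23 lower (28.3% and 19.2%, against 19.7% and 19.9% of all genes). The lower share was near that of all genes. These counts are not given with day 30 as 1 sample. Clk1, a kinase that phosphorylates SR proteins, had 333, 268 and 290 at day 0, 381, 406 and 371 at day 3, 206, 83.4 and 191 at day 7, and 574, 555 and 585 at day 30. Like Hnrnph1 it was lowest in the day 7 libraries and highest in those of day 30, and it changed by 1.93 ± 0.25 at day 30 against day 7 (adjusted p = 7.57e-05). Nktr, a cyclophilin with SR repeats, fell by 2.17 at day 7 against day 3 and Clk4 by 1.68. Srpk1, an SR protein kinase, passed in none of the comparisons, with 44.7 to 50.4 at day 7 and 45.1 to 60.3 at day 3. Lsm4, of the ring that binds U6, was lower at day 30 than at day 7, with a log2 fold change of -1.26 (adjusted p = 0.00106; 0.0566 with day 30 as 1 sample). Snrnp70, the U1-70K protein, rose by 0.74 at day 3 against day 0 (0.44 after quantile normalisation, adjusted p = 0.0826).

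The changes went with base composition. Across 107 splicing genes with an annotated transcript, of which the longest was used, the log2 fold change at day 30 against day 7 correlated with transcript GC content at r = -0.617 (Spearman -0.588), and that at day 7 against day 3 at r = 0.547 (0.543). Over 12714 tested genes the values were -0.486 and 0.251. These are correlations across genes, which share their libraries and are not replicates. With log2 transcript length, r was 0.397 for splicing genes and 0.219 for all at day 30 against day 7. Median GC content was 42.2% for SR, 43.9% for hnRNP, 46.4% for Sm and 50% for U2 genes, against 49% for all, and Sm transcripts were short, with a median of 1055 bases against 3294.5. With GC and length trends removed from each library, 5 splicing genes rose and 51 fell at day 7 against day 3, 32 rose and 9 fell at day 30 against day 7, and 57 rose and 4 fell at day 3 against day 0. The shares of all genes with these trends removed are not given.

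**Figure D5:**
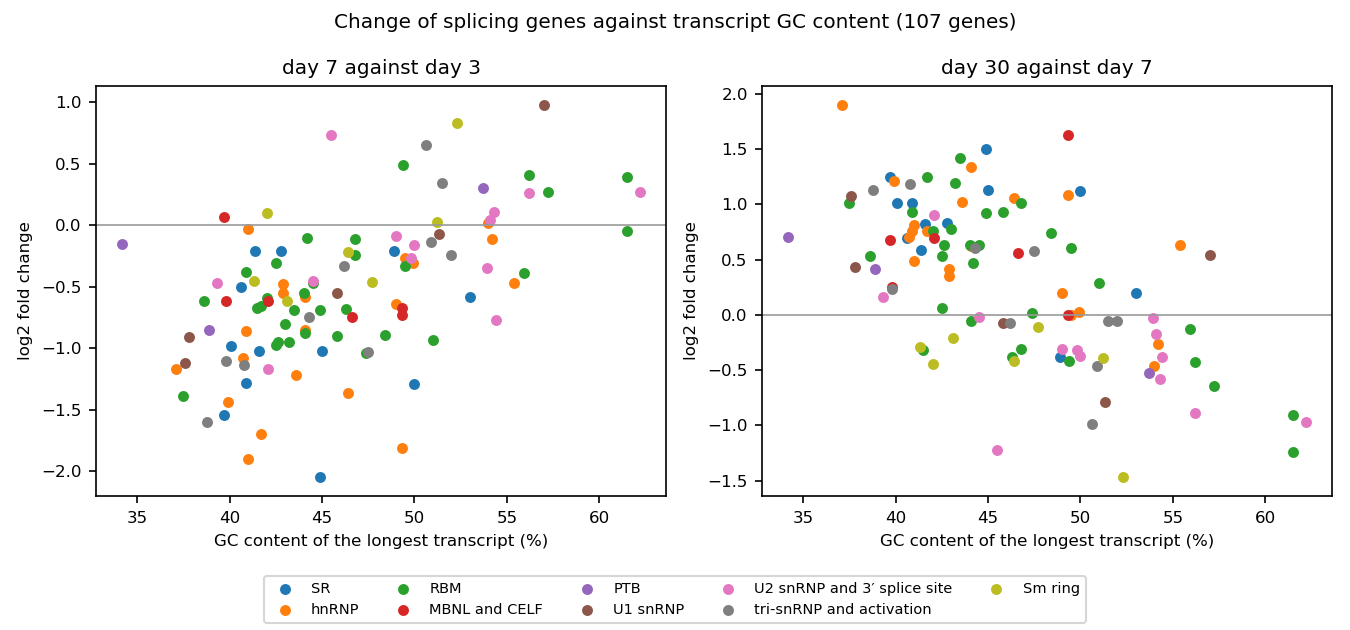
Log2 fold change of 107 splicing genes against transcript GC content in percent, with genes as points coloured by class, at day 7 against day 3 (left) and day 30 against day 7 (right). The change falls with GC content at day 30 against day 7 (r = -0.617) and increases with it at day 7 against day 3 (r = 0.547).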

How the data were processed

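RNA sequencing of 12 libraries was taken from a deposited table. The submitters' processing notes name cutadapt 1.3, RSEM 1.2.20, edgeR 3.14.0 and GRCm38, without the role of each. The deposited signal is a linear normalised read count, and the deposited log2 values are its log2, with values below 1 set to 0. Values were whole multiples of 1 read (100% within 0.02), so reads were recovered by division. Strand use in counting is not given in the sources used here, nor is any batch. Log2(signal + 1) was fitted with limma 3.58.1 in R 4.3.3 for the 12879 genes whose mean signal reached 1, on 4 group means (8 residual degrees of freedom, trended prior), with two-sided Benjamini-Hochberg adjusted p over all these genes. A fold change on this scale understates the change of low genes. Alternatives were edgeR 4.0.16 and DESeq2 1.42.0 on recovered reads, other scalings, pseudocounts and filters, and leaving out each library. The fit was tested on simulated data. Genes were placed with the GRCm38 annotation (98.4% of identifiers matched). Named genes were, per comparison, up to 6 largest rises and falls that passed with a mean signal of at least 10, the top gene of each class, and a list of core factors. The genes, classes and lists were chosen with earlier results of these data known. No pairing was used, because the labels do not say that equal replicate numbers mark the same animal. Same-numbered replicates also did not deviate together. P-values set a difference of group means against the spread between these libraries, estimated over the 4 groups together. Protein sequences were not used here. Not every gene that meets this rule is described, and 1 other result is not reported here.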

Additional observations from a re-analysis of the deposited data

Results flagged for a closer look

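7 genes were higher at day 3 and lower at day 7, both against day 0 and both past the threshold, and the difference between these days passed as well (limma, 12 libraries). Their log2 fold changes at day 7 against day 3 were -2.05 for Tra2a, -1.81 for Hnrnpm, -1.54 for Tra2b, -1.44 for Hnrnpa3, -1.28 for Srsf3, -1.22 for Hnrnpa2b1 and -1.02 for Srsf7. In each of the 7 the 3 day 7 libraries were below the 3 day 3 libraries, which their choice by a test of this difference makes likely. How many of all tested genes share the pattern was not counted. Without day 0 replicate 1, none of the 7 passed at day 7 against day 0 by limma, while the log2 fold changes kept their sign: -0.58 for Tra2a, -0.60 for Hnrnpm, -0.66 for Tra2b, -0.42 for Hnrnpa3, -0.48 for Srsf3, -0.55 for Hnrnpa2b1 and -0.46 for Srsf7, with adjusted p of 0.053 to 0.15. After quantile normalisation the rise at day 3 against day 0 no longer passed for Tra2b (0.31), Hnrnpm (0.63), Srsf3 (0.30), Srsf7 (0.15) and Hnrnpa2b1 (0.11). It was kept for Tra2a and Hnrnpa3. In a limma fit of the compared groups alone, none of the 7 passed at day 7 against day 0 (adjusted p of 0.0945 to 0.152). The gate differs between days 3 and 7 as well as the time, and these cannot be told apart.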

How the results depend on the processing

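Of 345 values of the 69 named genes, 173 passed the threshold, and 69 of those passed under every alternative. Over 8625 recomputed values, 7920 kept their side of the threshold, 462 lost it, 239 gained it and 4 reversed, and the cause was not tested. A reversal is a change of sign where the main or the alternative fit passed. Values that passed in neither fit could change sign and still count as kept. The reversed values were Hnrnpa1 at day 7 against day 0 without both day 0 replicate 1 and day 7 replicate 2 (0.46; -0.38 to 0.20 leaving out 1 library), and, with GC and length trends removed, Ptbp3 (-0.30), U2af2 (0.35) and Srpk1 (-0.36) at day 30 against day 7. A mean signal of at least 5 left 1 gene lower at day 3 against day 0. Quantile normalisation gave 21 higher and 9 lower at day 3 against day 0, and 8 higher at day 7 against day 3. A fit of the compared groups alone gave 2 higher and 3 lower at day 7 against day 0, and 30 higher and 11 lower at day 30 against day 0. DESeq2 gave 14 higher at day 30 against day 0. Added after seeing the data were 3 alternatives. Without both libraries, 8 were lower at day 3, 7 higher and 5 lower at day 7, and 35 higher and 9 lower at day 30, each against day 0. With the day 30 libraries as 1 sample, 2 were higher and 7 lower at day 7 and 0 and 0 at day 30 against day 0 (5 and 3 by edgeR with 3 samples), 11 higher and 2 lower at day 30 against day 7, and 51 passed the 4-group test. With GC and length trends removed, 8 were higher at day 7 against day 0 and 32 at day 30 against day 7. Leaving out 1 library gave 29 to 56 higher and 2 to 6 lower at day 3 against day 0, 2 to 5 and 6 to 30 at day 7 against day 0, 2 to 25 and 0 to 9 at day 30 against day 0, 3 to 6 and 48 to 57 at day 7 against day 3, 39 to 53 and 9 to 15 at day 30 against day 7, and 64 to 86 in the 4-group test. A replicate block, for numbers that do not pair the libraries (same-numbered deviations correlated at a median of 0.0049, different-numbered at -0.0069), changed 8 of the 345 named calls: 7 were gained and 1 lost. The counts in this section are of splicing genes, without the share of all genes in the same fit. Depth limits the 6 genes under 20 reads in a library.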
